A study of Mus musculus with 2 samples.

Results

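Motor proteins turn ATP into movement along the cytoskeleton. The 97 genes described here are the protein-coding mouse genes whose symbols begin with Kif, Klc, Dync, Dynl or Dctn, or with Myo and a number, together with Myh9 and Myh10. They were taken by symbol and not by any measured value. Of the 97, 56 reached a summed count of 20 spliced reads and are called measured below, 18 had between 1 and 19 reads, and 23 had 0 reads on a matched intron. A count of 0 allows up to 3 reads in a library by counting error, and a gene with fewer than 2 matched introns could not be named at all. Over the whole series, 10772 genes had a matched splice junction and 8365 were measured.

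RNA was sequenced from mouse peritoneal macrophages, with 1 library per group, to ask how interleukin 10 (IL-10), a cytokine that restrains inflammatory activation, alters their transcripts. The IL-10 group received the cytokine at 100 ng/ml for 4 h, and the untreated group received none. Male C57BL/6JJcl mice gave the cells of both groups, which thioglycolate broth had drawn into the peritoneal cavity 3 days earlier and which then adhered for 24 h, so thioglycolate and adherence are shared. Group membership rests on the sample titles, because the untreated sample carries the same protocol text as the treated one; how many mice gave cells to each library is not given in the sources used here.

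Kinesins are microtubule motors, most of which walk towards the plus ends that face the cell edge, and cytoplasmic dynein, with its activator dynactin, walks the other way. Myosins move on actin filaments. In macrophages these motors carry endosomes, lysosomes and phagosomes, place organelles, and shape the actin of phagocytic cups and podosomes, while another group of kinesins builds the mitotic spindle of dividing cells.

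What was counted are reads that cross an exon-exon junction, and the sequences they cross show what each value stands for. The junctions below are the ones with the most reads in 5 genes to which the results return. Each is written 5′ to 3′ on the gene's strand, from the GENCODE M21 transcripts, with the last 20 bases of the upstream exon in lower case and the first 20 of the downstream exon in capitals; the interval is the intron between them in mm9.
Kif3a, intron chr11:53384312-53392345, plus strand: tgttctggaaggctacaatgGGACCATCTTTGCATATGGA
Kifc3, intron chr8:97626047-97626246, minus strand: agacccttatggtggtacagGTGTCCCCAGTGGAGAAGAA
Myo1e, intron chr9:70189957-70190850, plus strand: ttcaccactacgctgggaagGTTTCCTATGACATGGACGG
Myo1f, intron chr17:33713469-33713557, plus strand: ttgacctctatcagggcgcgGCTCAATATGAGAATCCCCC
Klc4, intron chr17:46773743-46773861, minus strand: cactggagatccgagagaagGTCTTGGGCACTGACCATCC
The Kif3a junction was crossed by 136 reads with IL-10 and 63 untreated, the Kifc3 junction by 14 with IL-10 and 6 untreated, and the Myo1e junction by 417 reads with IL-10 and 277 untreated. The Myo1f junction had 458 reads with IL-10 and 603 untreated. The Klc4 junction had 92 reads with IL-10 and 132 untreated.

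The libraries were of nearly equal depth, with 3998954 junction reads for IL-10, of which 3839921 could be assigned to 1 gene, and 4035991 for untreated cells, of which 3868361 could. Macrophage markers were present, with 9 of 10 measured and 64492 reads in the IL-10 library against 79460 in the untreated library. Lyz2 held 53.4% of those reads, and the intervals of 4 members lay above 1 and of 4 below. Cd14 stood at 0. Such a 0, here and for the markers that follow, does not show absence, because a gene with too few matched introns could not be named. Markers of fibroblasts and mesothelium were present at a far lower level, with 5 of 8 measured and 1259 reads with IL-10 against 1152 untreated (Lum at 0), as were those of neutrophils, with 3 of 6 measured and 932 reads with IL-10 against 868 untreated (Ly6g, Retnlg and S100a8 at 0). Mast cell and eosinophil markers held 103 reads with IL-10 and 68 untreated, muscle markers 419 with IL-10 and 474 untreated, and no B cell or T and NK cell marker was measured. The part of other cell types in the results below was not tested, and in bulk RNA fewer cells of a type and less RNA per cell cannot be told apart.

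The motor genes took 1.16% of the assigned reads with IL-10 and 1.09% untreated. The 56 measured ones had a median of 441.5 summed reads over both libraries, against 224 for all measured genes, and such sums grow with the number of introns. A gene's ratio is its share of assigned reads with IL-10 over its share untreated, with a 95% exact conditional binomial (Clopper-Pearson) interval. With 1 library per group there is no replicate check, so the ratios compare these libraries, and their intervals cover counting error alone. PCR copies cannot be told from separate molecules.

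Of the 56 measured motor genes, 5 were higher with IL-10 by at least 2-fold with an interval above 1, where 1.75% of all measured genes were, and 4 were lower by at least 2-fold with an interval below 1, where 1.49% of all genes were. The higher genes were Kif3a, Kifc3, Kif1a, Kif9 and Myo1d. Kif23, Dynlt1a and Dync2h1 were among the lower ones. Only Kif3a and Kifc3 among these 9 had 100 or more reads, so 7 of the 9 rest on between 24 and 50 reads over both libraries. At 1.5-fold, 6 motor genes were higher, beside 4.27% of all measured genes, and 4 were lower, beside 4.02%. Most motor genes differed little, since 44 of 56 (78.6%) lay within 1.5-fold, as did 85.4% of all genes.

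**Figure D1:**
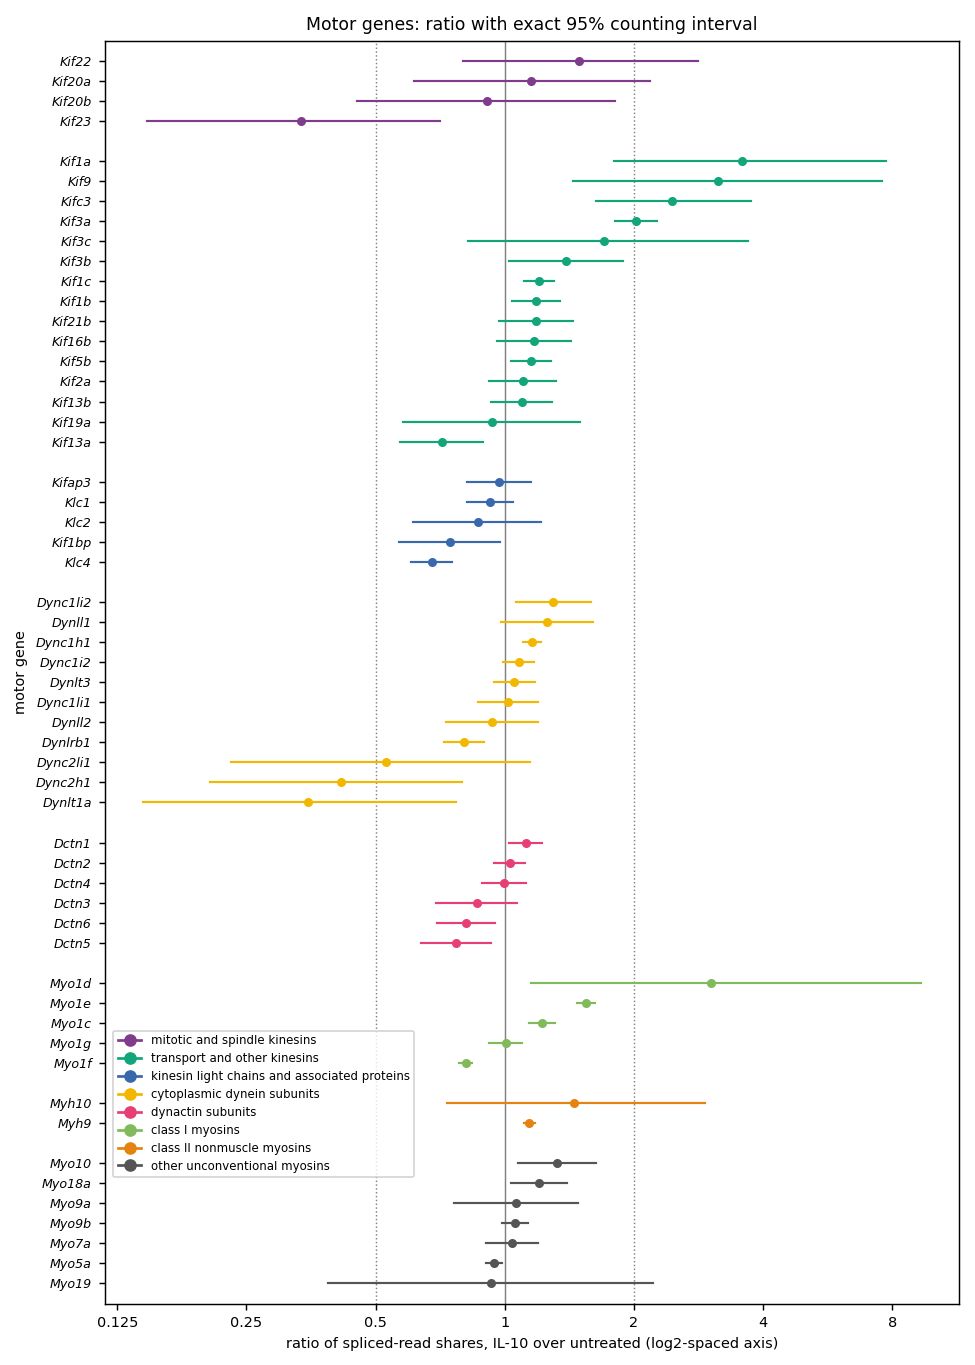
Ratio of the share of spliced reads, IL-10 over untreated, for 55 of the 56 measured motor genes (log axis), grouped by motor class; points are ratios and bars are 95% counting intervals. Kif3a, at 2.017, and Myo1e, at 1.544, stand above 1 with narrow bars, while genes drawn far from 1, such as Kif23 at 0.3358 and Kif1a at 3.572, have wide ones.

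Smaller differences were frequent. The interval lay above 1 for 17 of 56 motor genes (30.4%), against 12.8% of all measured genes, and below 1 for 12 (21.4%), against 13.1% of all genes. Because deeper genes have narrower intervals, the counts were repeated at 500 or more reads. There 10 of 26 motor genes (38.5%) lay above 1, against 23.2% of all genes of that depth, and 5 of 26 (19.2%) lay below 1, against 22.3%. The median log2 ratio was 0.08 over the motor genes and -0.001 over all measured genes, and that of the motor genes was 0.009 on the introns nearer the 5′ end and 0.160 on each gene's intron with the most reads. Here and below, medians on such subsets of introns are relative to the reads on that subset. No all-gene median is given for the subsets.

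Among kinesins that carry cargo or act outside mitosis, 15 of 28 were measured. Kinesin-2 is a trimer of Kif3a with Kif3b or Kif3c and the cargo-linking subunit Kifap3 that moves vesicles and builds cilia. Kif3a had 929 reads with IL-10 and 464 untreated, a ratio of 2.017 (1.802 to 2.26). All 16 of its introns with at least 5 reads were higher with IL-10, and the ratio was 1.995 on the introns nearer the 5′ end and 2.064 on those nearer the 3′ end.

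Kif3b had 106 reads with IL-10 and 77 untreated, a ratio of 1.387 (1.024 to 1.885). Kif3c, its alternative partner, had 22 reads with IL-10 and 13 untreated, and its interval included 1 (0.8217 to 3.684). Kifap3 had 266 reads with IL-10 and 276 untreated, a ratio of 0.971 (0.8173 to 1.153). Its introns divided into 8 higher and 10 lower. The Kifap3 ratio was 1.164 (0.9169 to 1.479) on the introns nearer the 5′ end and 0.791 (0.6117 to 1.019) on those nearer the 3′ end. The motor subunit Kif3a therefore differed by more than its adaptor subunit did between these libraries, the intervals of the ratios not overlapping.

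To compare subunits with each other, reads were divided by the number of introns of the transcript with the most reads. On that scale Kif3a stood at 58.0 reads per intron with IL-10 and 29.0 untreated, Kif3b at 13.2 with IL-10 and 9.62 untreated, and Kifap3 at 13.8 with IL-10 and 14.3 untreated. Kif3a thus exceeded Kifap3 by 4.19-fold (3.653 to 4.821) in the IL-10 library and by 2.03-fold (1.748 to 2.369) in the untreated library. Its excess over Kif3b was 4.38-fold (3.577 to 5.403) with IL-10 and 3.02-fold (2.364 to 3.889) untreated, with overlapping intervals. Reads were uneven along Kif3a, with 657 with IL-10 and 331 untreated on the introns nearer the 5′ end. Those nearer the 3′ end held 272 with IL-10 and 133 untreated. The part of this unevenness in the per-intron excesses was not tested, and the intervals do not cover it.

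The other 3 higher kinesins were far less abundant. Kifc3, a minus-end-directed kinesin, had 85 reads with IL-10 and 35 untreated, a ratio of 2.447 (1.632 to 3.738), with a lower share on none of its 9 introns with at least 5 reads. Kif1a, best known as the carrier of synaptic vesicle precursors in neurons, had 39 reads with IL-10 and 11 untreated, a ratio of 3.572 (1.794 to 7.732). On the introns nearer the 3′ end Kif1a had 28 reads with IL-10 and 4 untreated (ratio 7.065, 2.472 to 27.72). On those nearer the 5′ end it had 11 with IL-10 and 7 untreated (ratio 1.58, 0.5592 to 4.806), and the intervals of the ends overlapped. Kif9, which in human macrophages has been linked to podosomes, had 28 reads with IL-10 and 9 untreated, a ratio of 3.134 (1.438 to 7.55).

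**Figure D2:**
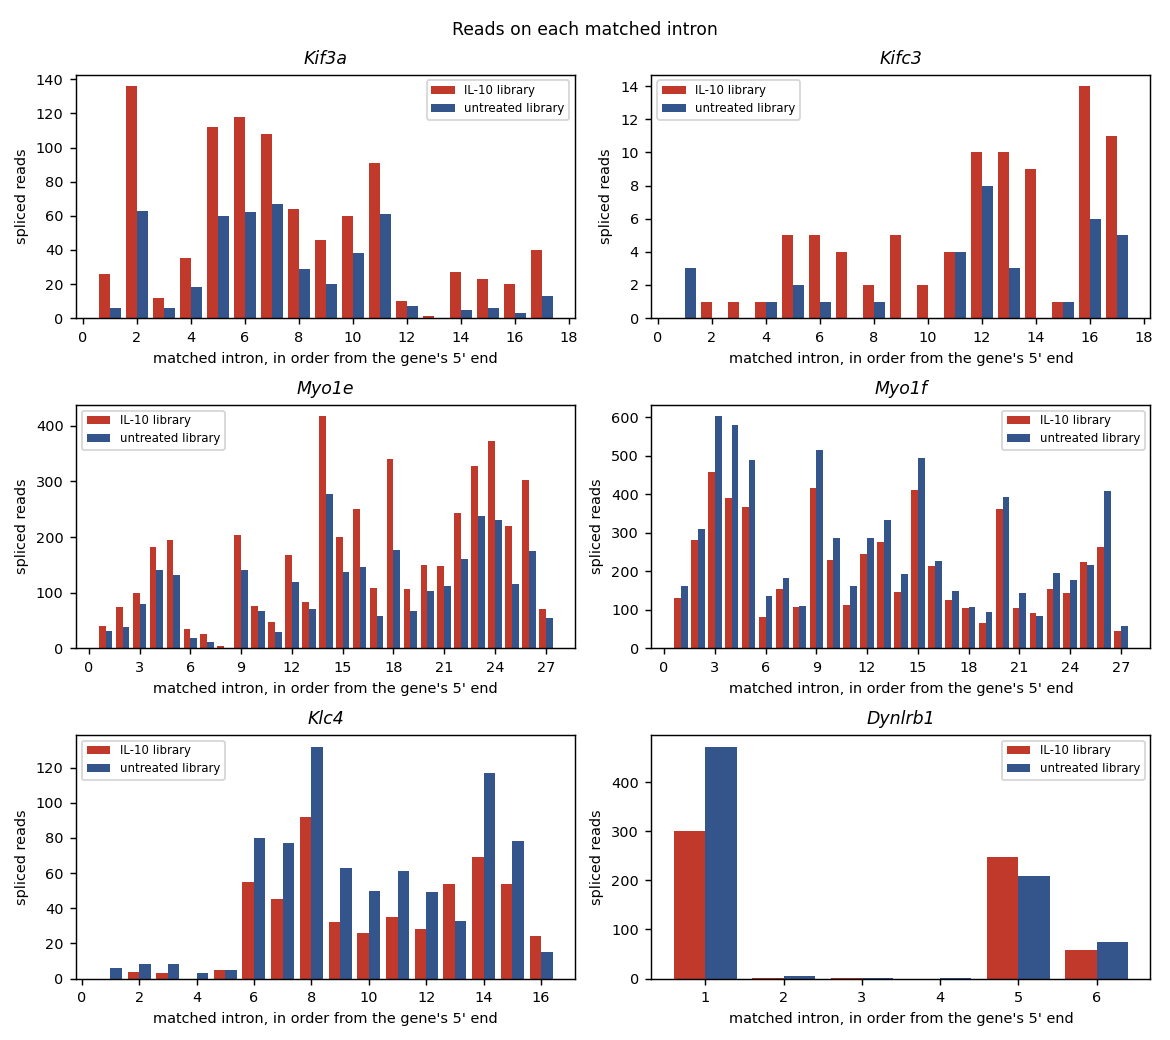
Spliced reads on each matched intron, in order from the 5′ end, in the IL-10 library (left bar) and the untreated library (right bar), for 6 motor genes; the vertical axes differ. In Kif3a, Kifc3 and Myo1e the IL-10 bar is at least as tall as the untreated one on each intron with at least 5 reads over both libraries, in Myo1f the untreated bar is taller on 25 of 27, and in Dynlrb1 the introns disagree.

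Among the more abundant carriers the differences were smaller. Kif1c, a kinesin-3 motor that has been linked to podosomes in human macrophages, had 1377 reads with IL-10 and 1154 untreated, a ratio of 1.202 (1.111 to 1.301), with 19 of 23 introns higher. Kif5b, the heavy chain of conventional kinesin, had 756 reads with IL-10 and 662 untreated, a ratio of 1.15 (1.035 to 1.279), though its introns divided into 14 higher and 10 lower. Kif1b, a carrier of mitochondria and vesicles, had 513 reads with IL-10 and 437 untreated, a ratio of 1.183 (1.039 to 1.347). Introns of Kif1b divided almost evenly too, 22 higher and 19 lower.

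The exception was Kif13a, which carries cargo to recycling endosomes. It had 140 reads with IL-10 and 198 untreated, a ratio of 0.712 (0.5695 to 0.8889), and was the only measured kinesin of this class with an interval below 1. For Kif13b, Kif16b, Kif19a, Kif21b and Kif2a the interval included 1, with ratios between 0.932 (Kif19a) and 1.181 (Kif21b). In all, 13 of the 15 ratios were above 1, as were 49.9% of the ratios of all measured genes, and the class median was 0.24 on the log2 scale. Kif21a, Kif26b, Kif5a, Kif5c and Kif7 had at most 9 reads each over both libraries, and Kif12, Kif17, Kif26a, Kif27, Kif28, Kif2b, Kif6 and Kifc2 had 0.

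Beside the kinesins stand the proteins that bind them. Klc1, Klc2 and Klc4 are light chains, which tie cargo to the Kif5 heavy chains, and Kif1bp binds the motor domains of several kinesins. Klc4 had 526 reads with IL-10 and 785 untreated, a ratio of 0.675 (0.6033 to 0.7548), or 1.481-fold lower, with 12 of 15 introns lower. Klc1 had 498 reads with IL-10 and 542 untreated, a ratio of 0.926 (0.8179 to 1.047). Klc4 thereby stood at 1.08 times Klc1 in reads per intron with IL-10 (0.9519 to 1.221), against 1.49 times untreated (1.336 to 1.668).

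Kif1bp had 96 reads with IL-10 and 130 untreated, a ratio of 0.744 (0.5654 to 0.9759). On its introns nearer the 5′ end the ratio was 1.023 (0.6927 to 1.513), and on those nearer the 3′ end it was 0.538 (0.3573 to 0.8004). Klc2 had 66 reads with IL-10 and 77 untreated, with an interval that included 1. With Kifap3, all 5 measured members of this class had ratios below 1, from -0.57 (Klc4) to -0.04 (Kifap3) on the log2 scale, where 49.9% of all measured genes had ratios above 1, and the median was -0.21. For 3 of the 5 the interval included 1, and for 2 it lay below 1, beside 13.1% of all measured genes. Neither Klc4 nor Kif1bp reached a 1.5-fold difference. Klc3 had 0 reads.

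Mitotic kinesins were scarce in both libraries. Only 4 of 14 were measured, none above 2.15 reads per intron of its leading transcript in either library. Kif23, a cytokinesis motor of the central spindle, had 10 reads with IL-10 and 30 untreated, a ratio of 0.336 (0.1464 to 0.7058), or 2.978-fold lower. Kif22, a chromokinesin, had 28 reads with IL-10 and 19 untreated, and Kif20a, which acts in cytokinesis, had 24 reads with IL-10 and 21 untreated, both with intervals that included 1, as did that of Kif20b at 18 reads with IL-10 and 20 untreated.

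No other measured mitotic kinesin had an interval that excluded 1. Of 20 other genes of mitosis, 10 were measured and the intervals of all 10 included 1, as did 6198 of the 8365 over all measured genes. The list had a median log2 ratio of -0.05 (0.153 on the introns nearer the 5′ end) and 342 reads with IL-10 against 354 untreated. Its intervals were wide. Aurka was the lowest, with 8 reads with IL-10 and 19 untreated (ratio 0.424, 0.1606 to 1.015). Plk1 was the highest, with 15 reads with IL-10 and 8 untreated (ratio 1.889, 0.7518 to 5.144). Racgap1, the partner of Kif23 in cytokinesis, had 14 reads with IL-10 and 15 untreated, and Cenpe, a kinesin by function whose symbol lies outside the rule, had 4 with IL-10 and 12 untreated. The proliferation markers held 81 reads with IL-10 and 80 untreated. Kif11, Kif14, Kif15, Kif18a, Kif18b, Kif24, Kif2c, Kif4, Kifc1 and Kifc5b had between 2 and 14 reads each over both libraries, and Kifc1 and Kifc5b are near-identical copies between which the aligner could divide reads.

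Cytoplasmic dynein showed small differences in its abundant subunits. The heavy chain Dync1h1, which holds the motor, had 3466 reads with IL-10 and 3018 untreated, a ratio of 1.157 (1.102 to 1.215), with 52 of 73 introns higher. The intermediate chain Dync1i2 had 1159 reads with IL-10 and 1084 untreated, a ratio of 1.077 (0.9906 to 1.171). Of the light intermediate chains, which bind cargo adaptors, Dync1li2 had 232 reads with IL-10 and 180 untreated (ratio 1.298, 1.064 to 1.586), and Dync1li1 had 311 with IL-10 and 308 untreated.

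The light chains had ratios on both sides of 1. Dynlrb1, a roadblock light chain and the most abundant dynein subunit per intron, had 611 reads with IL-10 and 765 untreated, a ratio of 0.805 (0.7222 to 0.8961). Of its 4 introns with at least 5 reads 3 were lower, among them the first, with 300 reads with IL-10 and 473 untreated, and the intron of 1982 bases, with 59 with IL-10 and 74 untreated. The intron of 4964 bases had 248 with IL-10 and 210 untreated. Dynll1, Dynll2 and Dynlt3, the other light chains with over 200 reads, had ratios of 1.253, 0.935 and 1.052, all with intervals that included 1. Per intron, Dynlrb1 exceeded the heavy chain Dync1h1 by 4.44-fold (4.064 to 4.836) with IL-10 and by 6.35-fold (5.862 to 6.881) untreated. Reads were uneven along Dync1h1, with 697 with IL-10 and 560 untreated on the introns nearer the 5′ end. Those nearer the 3′ end held 2769 with IL-10 and 2458 untreated. The part of this unevenness in the per-intron excess was not tested, and the intervals do not cover it.

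The lower dynein genes were rare transcripts. Dync2h1, heavy chain of the dynein that returns cargo along cilia, had 14 reads with IL-10 and 34 untreated, a ratio of 0.415 (0.2057 to 0.7936), spread over 30 introns of which none held 5 reads. Nearer the 3′ end Dync2h1 had 3 reads with IL-10 and 21 untreated (ratio 0.144, 0.02754 to 0.4829). Nearer the 5′ end it had 11 with IL-10 and 13 untreated (ratio 0.851, 0.345 to 2.057), and the intervals of the ends overlapped. Dync2li1, its light intermediate chain, had 11 reads with IL-10 and 21 untreated, with an interval that included 1 (0.2298 to 1.145). Dynlt1a, a Tctex-type light chain, had 9 reads with IL-10 and 26 untreated (ratio 0.349, 0.1438 to 0.7679), but 25 of the 26 untreated reads lay on 1 intron. It is also one of several near-identical copies with Dynlt1b, Dynlt1c and Dynlt1f, which had 0 reads each, so its value is uncertain. Dync1i1 had 4 reads and Dynlrb2 had 0.

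Dynactin is the complex that ties dynein to cargo and activates it. All 6 of its genes with Dctn symbols were measured, and none differed by 1.5-fold, where 85.4% of all measured genes lay within 1.5-fold. The largest subunit Dctn1, which contacts the microtubule, had 1055 reads with IL-10 and 950 untreated, a ratio of 1.119 (1.024 to 1.223). Dctn2, the subunit of the shoulder also called dynamitin, had 1148 reads with IL-10 and 1126 untreated, and Dctn4, at the pointed end, had 569 with IL-10 and 576 untreated, both with intervals that included 1.

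Dctn5 and Dctn6, the other Dctn genes of the pointed end, stood below 1. Dctn5 had 202 reads with IL-10 and 264 untreated, a ratio of 0.771 (0.6386 to 0.9293), with 0 of 5 introns higher. Dctn6 had 297 reads with IL-10 and 368 untreated, a ratio of 0.813 (0.6954 to 0.9499), with 0 of 8 introns higher. Dctn3, a shoulder subunit, had 162 reads with IL-10 and 190 untreated, with an interval that included 1. The class median was -0.11 on the log2 scale.

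Class I myosins, short motors that link membranes to actin, ranged from abundant to scarce. Myo1e and Myo1f are the long-tailed members, both found at phagocytic cups and adhesions of macrophages. Myo1e had 4488 reads with IL-10 and 2928 untreated, a ratio of 1.544 (1.474 to 1.618). All 26 of its introns with at least 5 reads were higher with IL-10.

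Myo1f, by contrast, was lower with IL-10. It had 5713 reads with IL-10 and 7106 untreated, a ratio of 0.81 (0.7821 to 0.8387), or 1.235-fold lower, with 25 of 27 introns lower. As reads per intron, Myo1e stood at 166.2 with IL-10 and 108.4 untreated, and Myo1f at 211.6 with IL-10 and 263.2 untreated. Myo1e was therefore 0.786 of Myo1f (0.7553 to 0.817) in the IL-10 library and 0.412 of it (0.3945 to 0.4302) in the untreated library, and Myo1f stayed the more abundant in both.

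The short-tailed members varied among themselves. Myo1c had 1737 reads with IL-10 and 1435 untreated, a ratio of 1.219 (1.136 to 1.309), with 23 of 32 introns higher. Myo1g, a blood-cell member, had 1004 reads with IL-10 and 1007 untreated, a ratio of 1.004 (0.9194 to 1.097). The scarce Myo1d had 18 reads with IL-10 and 6 untreated, a ratio of 3.022 (1.149 to 9.301). Myo1a and Myo1h had 0 reads.

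Markers of fibroblasts and mesothelium are given beside Myo1d, which tissue cells express too. Over that list the reads were 1259 with IL-10 and 1152 untreated, with Col1a2 at 511 with IL-10 and 419 untreated and Dcn at 99 with IL-10 and 132 untreated. The part of such cells in the value of Myo1d was not tested.

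**Figure D3:**
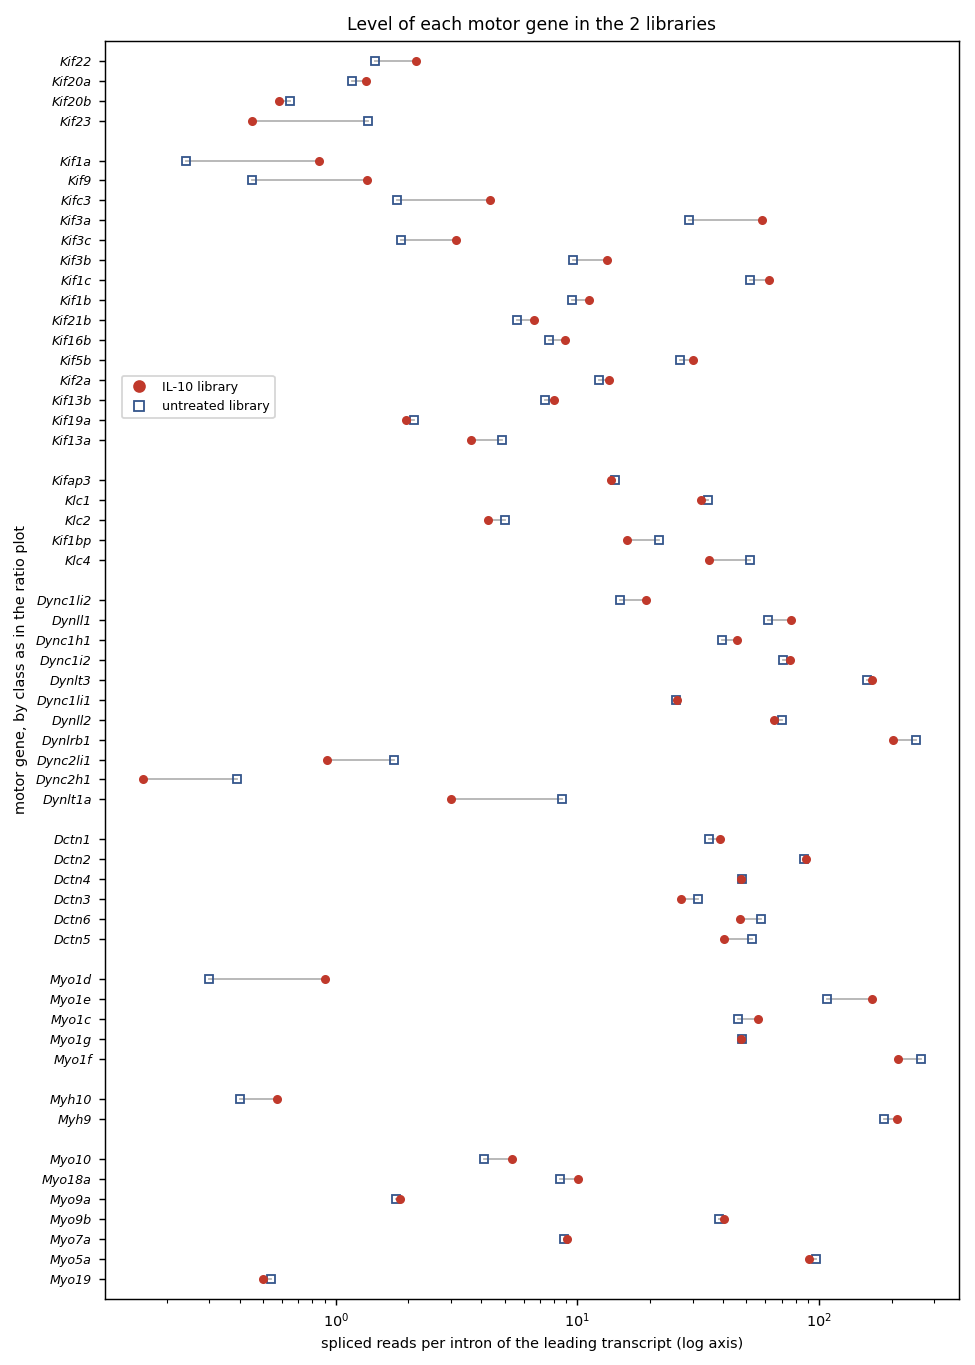
Level of 55 of the 56 measured motor genes as spliced reads per intron of the transcript with the most reads (log axis), IL-10 (filled circles) and untreated (open squares), in the class order of the ratio plot. Myh9, Myo1f, Myo1e, Dynlrb1 and Dynlt3 lie above 100 in both libraries, while some genes with long connecting lines, such as Kif1a and Kif9, lie near or below 1.

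The nonmuscle class II myosins form the bipolar filaments that contract the actin cortex. Myh9, heavy chain of myosin IIA, was the motor gene with the most reads, 8400 with IL-10 and 7418 untreated, a ratio of 1.141 (1.106 to 1.177), with 30 of 40 introns higher. Myh10, heavy chain of myosin IIB, had 23 reads with IL-10 and 16 untreated, with an interval that included 1 (0.7325 to 2.933). Per intron, Myh9 stood at 210.0 with IL-10 and 185.4 untreated, and Myh10 at 0.57 with IL-10 and 0.40 untreated.

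None of the 7 measured unconventional myosins of other classes differed by 1.5-fold, where 85.4% of all measured genes lay within 1.5-fold. Myo5a, a carrier of vesicles and organelles, had 3725 reads with IL-10 and 3979 untreated, a ratio of 0.943 (0.9016 to 0.9864), with 26 of 42 introns lower. Myo9b had 1634 reads with IL-10 and 1562 untreated, and Myo7a, a myosin of microvilli and stereocilia, had 428 with IL-10 and 415 untreated, both with intervals that included 1.

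Myo10, the motor of filopodia tips, had 215 reads with IL-10 and 164 untreated, a ratio of 1.321 (1.073 to 1.628), with 17 of 26 introns higher. Myo18a had 388 reads with IL-10 and 326 untreated, a ratio of 1.199 (1.032 to 1.394), with 25 of 33 introns higher. Myo9a and Myo19 had intervals that included 1. Myo18b had 15 reads over both libraries and Myo6 had 12, and Myo15, Myo15b, Myo16, Myo3a, Myo3b, Myo5b, Myo5c and Myo7b had 0.

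Partners of the motors were listed by role to set beside them. Of 36 adaptors and regulators of dynein and kinesin, 28 were measured, with a median log2 ratio of 0.03. None differed by 2-fold with an interval excluding 1, where 1.75% of all measured genes were higher and 1.49% lower. Of the 28 intervals, 5 lay above 1 and 5 below, beside 12.8% above and 13.1% below over all measured genes. Among members picked after their values were seen, Pafah1b1, the Lis1 regulator of dynein, had 481 reads with IL-10 and 575 untreated (ratio 0.843, 0.745 to 0.9529), and Plekhm2, which links lysosomes to kinesin through Arl8, had 739 with IL-10 and 557 untreated (ratio 1.337, 1.196 to 1.495). Of the lysosomal GTPases, Arl8a had 955 reads with IL-10 and 831 untreated, and Arl8b had 525 with IL-10 and 631 untreated.

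Of 22 myosin light chains, kinases and phosphatase subunits, 18 were measured and 1 was higher by 2-fold, beside 1.75% of all measured genes. This was Ppp1r12b, a targeting subunit of myosin phosphatase, with 22 reads with IL-10 and 10 untreated (ratio 2.216, 1.007 to 5.243). The list's median was 0.09 on the log2 scale. All 12 tropomyosins and actin partners were measured, none past 2-fold (beside 1.75% of all measured genes higher and 1.49% lower), with a median of 0.115. Of their intervals 5 lay above 1 and 1 below, where 12.8% of all measured genes lay above and 13.1% below, or 23.2% above and 22.3% below among genes with 500 or more reads. Of 20 tubulins and tubulin modifiers 13 were measured, none past 2-fold (beside 1.75% of all measured genes higher and 1.49% lower). Their median was -0.11, which turned to 0.05 on each gene's most-read intron and to 0.10 on the introns nearer the 3′ end. Of 20 axonemal dyneins, which beat cilia, the light chain Dnal4 alone was measured, at 30 reads with IL-10 and 37 untreated (ratio 0.817, 0.4874 to 1.359).

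Splicing was compared as the share of reads that each junction took at its donor or acceptor, wherever a site held 20 or more reads with IL-10 and as many untreated. In the motor genes 76 sites in 25 genes allowed this, giving 163 junction shares. None differed by 20 percentage points with separate 95% Clopper-Pearson intervals, and in none did the intervals separate at any size. Among all genes 27 of 20246 shares (0.133%) met that threshold and 97 had separate intervals.

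The widest gap was in the kinesin light chain Klc1, whose 3′ exons are alternatively joined. At the acceptor chr12:113044218, the intron of 10329 bases took 21 of 23 reads with IL-10 (91.3%, 71.96 to 98.93) and 16 of 25 untreated (64%, 42.52 to 82.03). Upstream, the acceptor that shortens an exon by 24 bases took 7 of 44 reads with IL-10 (15.9%, 6.644 to 30.07) and 16 of 51 untreated (31.4%, 19.11 to 45.89). Both differences lay within overlapping intervals. In Dynll2, the annotated first intron took 37 of 48 reads with IL-10 (77.1%, 62.69 to 87.97) and 54 of 58 untreated (93.1%, 83.27 to 98.09).

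The alternative segments of Klc1 and Myo5a are shown because both libraries used both forms of each gene. Capitals mark the segment, and the 20 transcript bases on each side are in lower case. For Klc1 the lower-case bases after the segment belong to the same exon. The Klc1 segment lies at chr12:113027536-113027559 and the Myo5a exon at chr9:75043933-75044007, both on the plus strand of mm9, and both lengths are multiples of 3.
Klc1, 24 bases between 2 acceptors: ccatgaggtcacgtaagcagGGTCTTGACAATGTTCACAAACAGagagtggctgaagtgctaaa
Myo5a, exon of 75 bases: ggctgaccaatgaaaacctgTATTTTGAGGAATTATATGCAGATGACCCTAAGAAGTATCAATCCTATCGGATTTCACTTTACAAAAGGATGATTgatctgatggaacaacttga
At the donor before the Myo5a exon, the exon was joined by 20 of 51 reads with IL-10 (39.2%, 25.84 to 53.89) and 26 of 57 untreated (45.6%, 32.36 to 59.34). At the acceptor after it, the share was 14 of 45 with IL-10 (31.1%, 18.17 to 46.65) and 10 of 41 untreated (24.4%, 12.36 to 40.3), so the sides leaned in opposite directions. A difference smaller than these intervals was not detectable at this depth.

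**Figure D4:**
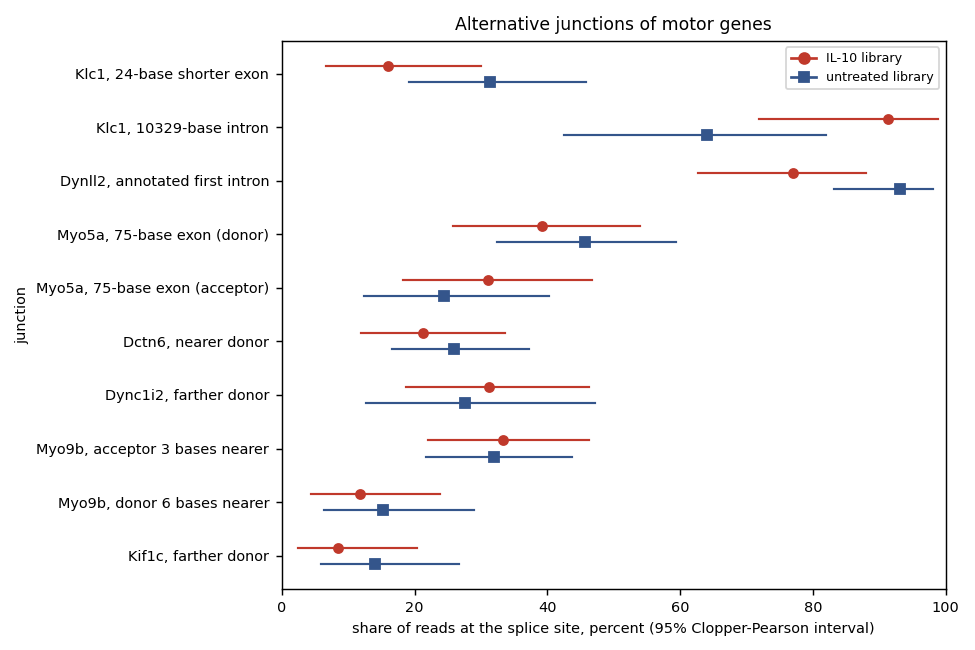
Share of reads at a shared splice site taken by 10 alternative junctions of motor genes, in percent, with 95% Clopper-Pearson intervals, IL-10 (circles, upper) and untreated (squares, lower). The intervals of the libraries overlap for every junction drawn, including the 10329-base intron of Klc1 at 91.3% with IL-10 and 64% untreated.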

How the data were processed

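TopHat, Cufflinks and the mm9 build are named without versions or order, per the submitters' processing notes; Cufflinks values were not used here. The authors deposited, per the file headers, TopHat junction lists whose raw count per junction is the number of reads placed across it. The IL-10 library had an insert size of 188 bp and the untreated one of 197 bp, per the labels' protocols.

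Genes were named from GENCODE M21, on a later build, where chromosome, strand and exact intron length matched and at least 2 introns of a gene shared an offset within 20 Mb; further offsets of a gene were kept within 10 kb of the best. This placed 106634 of 131057 junctions (81.36%, with 98.14% of reads), and 95.93% of reads fell on introns of 1 gene. Coordinates are mm9, as deposited. Each gene's count was summed over its own introns and divided by the library's sum over such introns. Log2 ratios used a pseudocount of 0.5 reads.

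Per intron, a count was divided by the introns of the transcript with the most reads. The intervals of per-intron ratios between genes cover counting error and not uneven reads along a gene. The 20-read minimum is on the sum of both libraries, so a scarce gene can pass through its higher library. Reads were given for members 1.5-fold apart with an interval excluding 1 and for the 3 with the most reads of each of 8 classes. Ratios and intervals were added except for some whose interval included 1, and other members were named at will. The values of 1 measured member, which stays in the counts and medians, are not reported here. The members, classes and 6 partner lists were chosen with earlier results of these data known. Alternatives were TMM (edgeR 4.0.16, factor 0.996), DESeq2 1.42.0 size factors, all-read totals, minima of 0 and 100 reads, 1.5-fold and 3-fold, a pseudocount of 5, a 99% interval, subsets of introns, all junctions in the gene span, introns shared between genes and an overhang of 10 bases. The procedure was tested on simulated data. Python 3.11.15 with scipy 1.17.1 and R 4.3.3 were used.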

Additional observations from a re-analysis of the deposited data

How the results depend on the processing

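No paired analysis was possible because each group has 1 library. The 5 higher and 4 lower motor genes became 2 and 0 with at least 100 reads, 3 and 1 at 3-fold, 1 and 1 on the top intron (that with the most reads) alone, and 2 and 1 on the introns nearer the 5′ end, where Kif3a stood at 1.995. On the top intron alone, the median log2 ratio became 0.515 for transport kinesins, 0.312 for other unconventional myosins and 0.214 for class II myosins, which with 2 members gave 0.190 at 100 reads, 0.308 with a pseudocount of 5, 0.297 on 5′ introns and 0.283 on 3′ introns. Class I myosins gave -0.002 on 3′ introns. Median signs also turned for mitotic kinesins (-0.510 on 3′ introns), dynein (-0.117 on 5′ introns), other mitotic genes (0.279 on the top intron, 0.153 on 5′ introns) and tubulins (0.048 on the top intron, 0.099 on 3′ introns). Among partners, the 1 higher gene of the myosin light chain list became 0 with the DESeq2 factor, at 100 reads, on 5′ introns and with all junctions in the span. The adaptors had 1 higher on the top intron and 1 lower with no minimum, the tubulins 1 higher on the top intron and 1 lower on 5′ introns, and axonemal dyneins a median of -2.311 with no minimum. Medians on a subset of introns are relative to the reads on that subset, and no all-gene median is given for it. The causes were not tested. Of the 9 genes past 2-fold, Kif3a kept its place at every scaling and minimum tried and lost it at 3-fold and on 5′ introns; Kifc3 lost it at 3-fold and on the top intron; the other 7, among them Kif1a, Kif9, Myo1d, Kif23, Dynlt1a and Dync2h1, lost it at 100 reads, and Myo1d with a 99% interval. The splicing count stayed at 0 under the 6 alternatives. Depth limits the scarce motors most.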

Other observations

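Some motor genes differed between their ends, and no share of all measured genes that do so is given beside them. In Dync1li2 the introns nearer the 5′ end held 121 reads with IL-10 and 130 untreated (ratio 0.936, 0.7243 to 1.208), and those nearer the 3′ end held 111 with IL-10 and 50 untreated (ratio 2.241, 1.591 to 3.195). Kif2a leaned the other way, with 158 reads with IL-10 and 108 untreated on the 5′ introns (ratio 1.471, 1.144 to 1.896), and 101 with IL-10 and 129 untreated on the 3′ introns (ratio 0.79, 0.603 to 1.033). Dynlrb1 had 304 reads with IL-10 and 480 untreated on the 5′ introns (ratio 0.637, 0.5496 to 0.7365), and 307 with IL-10 and 285 untreated on the 3′ introns (ratio 1.087, 0.9223 to 1.282). These genes were chosen after their values were seen, and each ratio is relative to all reads on introns of the same end.

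Junctions outside the annotation numbered 133 in the motor genes, 26 of them with at least 5 reads, and carried 282 reads with IL-10 and 300 untreated. In Myo1f, the junction chr17:33712876-33713380, of the same 505 bases as an annotated intron whose ends lie 2 bases away, had 6 reads with IL-10 and 22 untreated (ratio 0.275, 0.09114 to 0.6987), and chr17:33722621-33723033 had 26 with IL-10 and 34 untreated (ratio 0.77, 0.4439 to 1.322). In Myh9, chr15:77593757-77594217 had 35 reads with IL-10 and 21 untreated (ratio 1.679, 0.9505 to 3.035). The Myo5a junction chr9:74984298-74988458, of the same 4161 bases as an annotated intron whose ends lie 4 bases away, had 21 reads with IL-10 and 30 untreated.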
